A study of Mus musculus with 8 samples.

Results

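Dio2, Thra, Thrb, Klf9, Ncor1 and Nrip1 are 6 genes of thyroid hormone activation and response, taken by name from the 22552 gene symbols measured. They were followed in RNA enriched for UCP1-positive cells from 3 fat depots of female mice kept in the cold. UCP1 is the mitochondrial uncoupling protein through which brown and beige adipocytes make heat. The strain is labelled C57B/6 UCP1-TRAP. TRAP stands for translating ribosome affinity purification: a GFP tag on the ribosomes of chosen cells lets an anti-GFP antibody collect them together with the mRNA they are reading. The strain's name gives Ucp1 as the gene that marks the cells. Pulled-down RNA also carries a background from unmarked cells, whose share was not measured here. The libraries comprised 3 of inguinal white adipose tissue (iWAT), 2 of perigonadal white adipose tissue (pgWAT) and 3 of interscapular brown adipose tissue (BAT). All the mice shared strain, sex and history, that is, birth at 30 °C, room temperature upon weaning (3 weeks), then 4 °C starting at 4 weeks of age, with tissue taken 2 weeks later, at 6 weeks. The series as a whole asks whether beige adipocytes arise from smooth muscle-like cells. No warm group, and no library of unbound RNA, was analysed here, so the data compare depots and not cold with warmth. The labels do not say that replicates came from separate animals, so a p-value here sets a difference against library-to-library spread that may be technical.

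Thyroid hormone reaches cells mostly as the prohormone thyroxine (T4). Type 2 deiodinase, the product of Dio2, removes an iodine from it to make the active hormone triiodothyronine (T3) inside the cell, and in brown fat adrenergic signals acting through cyclic AMP induce the gene. T3 acts on the nuclear receptors TRα (Thra) and TRβ (Thrb), which bind DNA, mostly together with a retinoid X receptor. Without hormone these receptors recruit corepressors such as NCOR1, and with it they recruit coactivators. NRIP1, also called RIP140, is a corepressor of several nuclear receptors that holds down Ucp1 and oxidative genes in adipocytes. Klf9 encodes a Krüppel-like factor whose transcription responds directly to T3 and to glucocorticoids.

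The promoter of Dio2 is shown because the gene is the inducible step of the pathway, and those of Thrb because its transcripts start at 2 places, of which the data bear on both. The RefSeq promoter table (build GRCm38.p6) held 8 promoters of 5 of the genes, and Thra is named only. Each sequence is the 250 bases before a transcription start, 5′ to 3′ on the gene's strand. Capitals mark a match to TGACGTCA, the cyclic AMP response element, which reads the same on both strands, or to AGGTCA, the nuclear receptor half-site, searched on both strands. The windows are chr12:90739039-90739288 (minus strand) for Dio2, chr14:17660710-17660959 (plus strand) for the upstream start of Thrb and chr14:17981394-17981643 (plus strand) for its downstream start.
Dio2: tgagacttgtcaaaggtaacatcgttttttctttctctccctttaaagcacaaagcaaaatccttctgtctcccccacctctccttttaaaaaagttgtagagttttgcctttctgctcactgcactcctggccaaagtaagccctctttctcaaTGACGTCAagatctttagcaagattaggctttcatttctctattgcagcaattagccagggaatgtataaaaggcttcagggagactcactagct
Thrb, upstream start: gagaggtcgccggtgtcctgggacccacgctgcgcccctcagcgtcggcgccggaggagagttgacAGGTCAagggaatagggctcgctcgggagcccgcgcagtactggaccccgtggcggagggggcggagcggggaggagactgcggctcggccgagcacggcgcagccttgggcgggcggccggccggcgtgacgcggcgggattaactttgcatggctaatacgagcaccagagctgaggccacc
Thrb, downstream start: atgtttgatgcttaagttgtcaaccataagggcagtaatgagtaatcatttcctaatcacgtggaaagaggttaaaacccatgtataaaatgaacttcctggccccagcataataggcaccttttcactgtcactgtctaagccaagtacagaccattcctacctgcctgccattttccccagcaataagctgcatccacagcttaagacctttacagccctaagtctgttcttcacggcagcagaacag
Dio2 held the cyclic AMP element at bases 95 to 88 before its start. That element stood in 508 of all 32851 promoters of this length (1.55%). The upstream Thrb promoter held a half-site at bases 184 to 179, which 4607 of the promoters (14.02%) also held, and the downstream one held neither motif. The searched windows of Klf9, Ncor1 and Nrip1 contained neither string of letters. A match is a description of the sequence and not a bound site.

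The values are FPKM as the authors deposited them, a level per transcript length and per library size. Which library size Cufflinks divided by, and whether it normalized between libraries, is not given in the sources used here. Whole fragments could be recovered from these values for genes with 1 listed transcript. The libraries were shallow: 198442 (iWAT replicate 3) to 890568 (pgWAT replicate 1) fragments were recovered on those genes. The same formula applied to every listed transcript gave 238913 to 1072340, a rougher estimate where transcripts share reads. FPKM totals over all listed genes ran between 75925 and 206549, so equal FPKM did not mean an equal share of the listed RNA. Over the 8958 genes tested, the median log2 fold change was 0.03 for iWAT over BAT, 0.52 for pgWAT over BAT and -0.50 for iWAT over pgWAT. Median-ratio scaling, which divides each library by its typical ratio to the others (0.545 in iWAT replicate 3 to 1.81 in pgWAT replicate 1), brought these medians to 0.01, 0.03 and -0.01. Each member is therefore given on both scales. The test was limma on log2(FPKM + 1) with Benjamini-Hochberg adjustment over all tested genes, and a gene was called at an adjusted p under 0.05. Of the cell type markers, the sum of 6 adipocyte genes was 2543 to 4904 FPKM in iWAT, 4861 to 7737 in pgWAT and 2930 to 3523 in BAT, with none at 0 in any depot. The sum of 6 thermogenic genes, Ucp1 and Dio2 among them, was 1410 to 3156 in iWAT, 3124 to 3377 in pgWAT and 3954 to 5001 in BAT. Its members differed. Cox8b averaged 659 in iWAT and 843 in pgWAT, against 1652 in BAT, and Cox7a1 averaged 418 and 472, against 1010. Elovl3 was higher in both white depots (67.2 and 72.6, against 52.8). Cidea (401, against 330) and Ucp1 (1438, against 1432) were not lower in pgWAT as deposited. In iWAT, 8 smooth muscle genes summed to 45.9 to 143 FPKM, against 8.32 to 15.5 in pgWAT and 6.90 to 8.24 in BAT. Likewise 9 mammary luminal genes summed to 113 to 141 in iWAT, 1.96 to 2.91 in pgWAT and 7.02 to 21.96 in BAT, where 8 of the 9 were at 0 in all libraries. The part of these other cells in the results was not tested. In pulled-down bulk RNA, fewer cells of a type and less of an mRNA per cell cannot be told apart.

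Dio2 was called lower in both white depots than in BAT after scaling, Nrip1 was called higher in pgWAT than in BAT on both scales, and Thra, Thrb, Klf9 and Ncor1 were called in no comparison on either scale. Nrip1 reached 1 FPKM, the minimum for testing, in white libraries only. None of the 6 genes was called for iWAT over BAT as deposited, where 2.20% of tested genes were, and 1 of 6 (Nrip1) was called higher for pgWAT over BAT, where 4.91% of genes were. For iWAT over pgWAT none was called, beside 0.703% of genes. After scaling 1 of 6 (Dio2) was called lower in iWAT than in BAT, beside 1.65% of genes, 2 of 6 (Dio2 lower, Nrip1 higher) differed between pgWAT and BAT, beside 6.10%, and none between iWAT and pgWAT, beside 0.313%. In the comparisons where limma called no member, its unadjusted p was under 0.05 for 1 member (Dio2) in iWAT over BAT, beside 8.53% of all tested genes, and for 3 (Klf9, Ncor1 and Nrip1) in iWAT over pgWAT as deposited, beside 12.4%. That deposited comparison is shifted as a whole (median -0.50), and after scaling the count there was 0, beside 7.61%. The comparisons of iWAT and pgWAT with BAT share the BAT libraries, so the members' values in them are not independent.

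**Figure D1:**
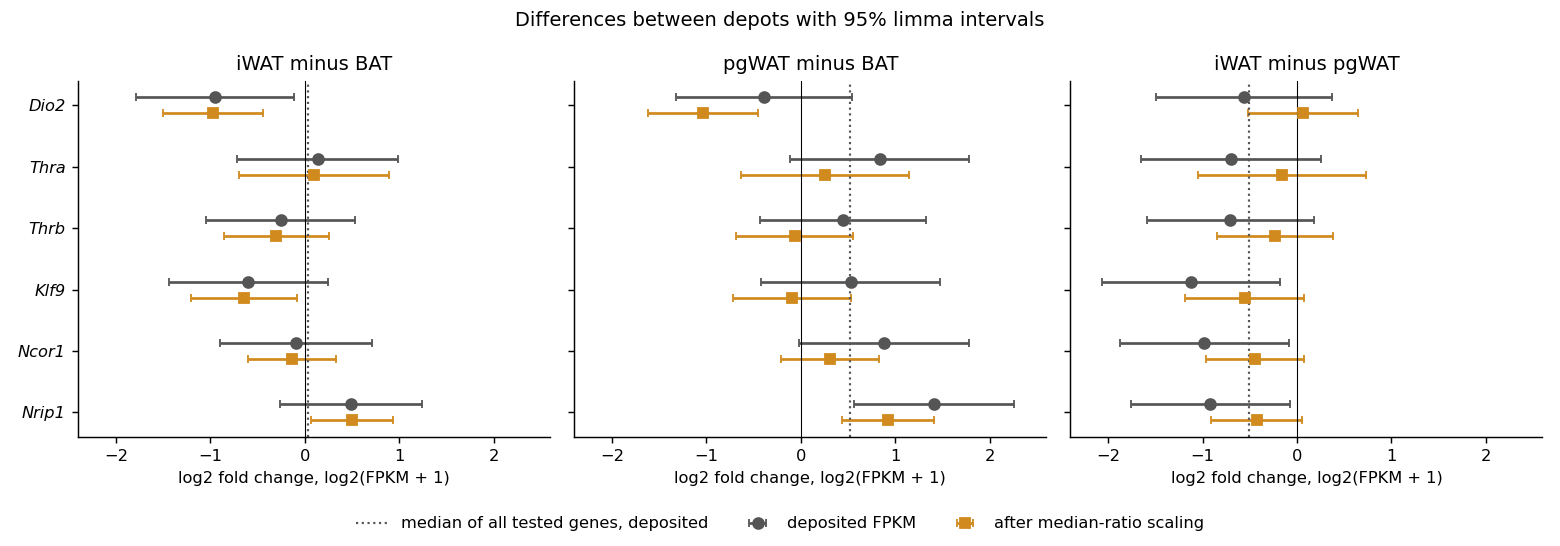
Log2 fold change of the 6 genes, on log2(FPKM + 1), with 95% limma intervals, as deposited (circles) and after median-ratio scaling (squares), for the 3 comparisons; the dotted line is the median of all tested genes as deposited. For pgWAT minus BAT that median is 0.52, and the deposited values of Thrb (0.45) and Klf9 (0.53) lie beside it.

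Dio2, which makes T3 from T4, had the highest FPKM of the 6 genes in every library. It lies at chr12:91962992-91976878 on the minus strand in mm9. Its FPKM was 31.5, 19.3 and 7.14 in iWAT replicates 1 to 3 and 28.7 and 21.5 in the pgWAT libraries, against 38.5, 33.8 and 27.3 in BAT. As deposited, both white depots overlapped BAT through their highest library, and iWAT replicate 3 was far below the rest. The means were 19.3 ± 12.2 (iWAT, n = 3), 25.1 ± 5.09 (pgWAT, n = 2) and 33.2 ± 5.64 FPKM (BAT, n = 3; SD throughout). After median-ratio scaling the values were 26.0, 17.0 and 13.1 in iWAT and 15.9 and 18.6 in pgWAT, against 41.5, 37.3 and 30.8 in BAT. On this scale every BAT library lay above every white one, with Dio2 at 0.512 times the BAT mean in iWAT and 0.471 times in pgWAT. How many of all tested genes separate without overlap, here or for the genes below, was not counted.

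The deposited values gave no call for Dio2 in limma, with a log2 fold change of -0.95 (95% interval -1.79 to -0.12, adjusted p = 0.424) for iWAT over BAT and -0.39 (-1.33 to 0.54, adjusted p = 0.593) for pgWAT over BAT. After scaling Dio2 was called lower in iWAT (-0.97, interval -1.50 to -0.45, adjusted p = 0.0454) and in pgWAT (-1.04, interval -1.62 to -0.45, adjusted p = 0.0453). The iWAT call held without iWAT replicate 1 (adjusted p = 0.0176) and was lost without each of the other libraries, with adjusted p of 0.111 and 0.116 without iWAT replicates 2 and 3, 0.0661 and 0.0652 without pgWAT replicates 1 and 2, and 0.145, 0.125 and 0.0622 without BAT replicates 1, 2 and 3. The pgWAT call held without iWAT replicates 1 and 3 and was lost without iWAT replicate 2 (adjusted p = 0.0616), pgWAT replicates 1 and 2 (0.323 and 0.115) and BAT replicates 1, 2 and 3 (0.135, 0.108 and 0.0585). The scaled log2 fold change stayed between -1.22 and -0.76 in iWAT and between -1.15 and -0.92 in pgWAT when any library was left out. Scaling to equal FPKM totals gave -0.84 and -0.83, with adjusted p of 0.0948 for iWAT and 0.126 for pgWAT. Between iWAT and pgWAT the scaled difference was 0.06 (interval -0.52 to 0.65).

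**Figure D2:**
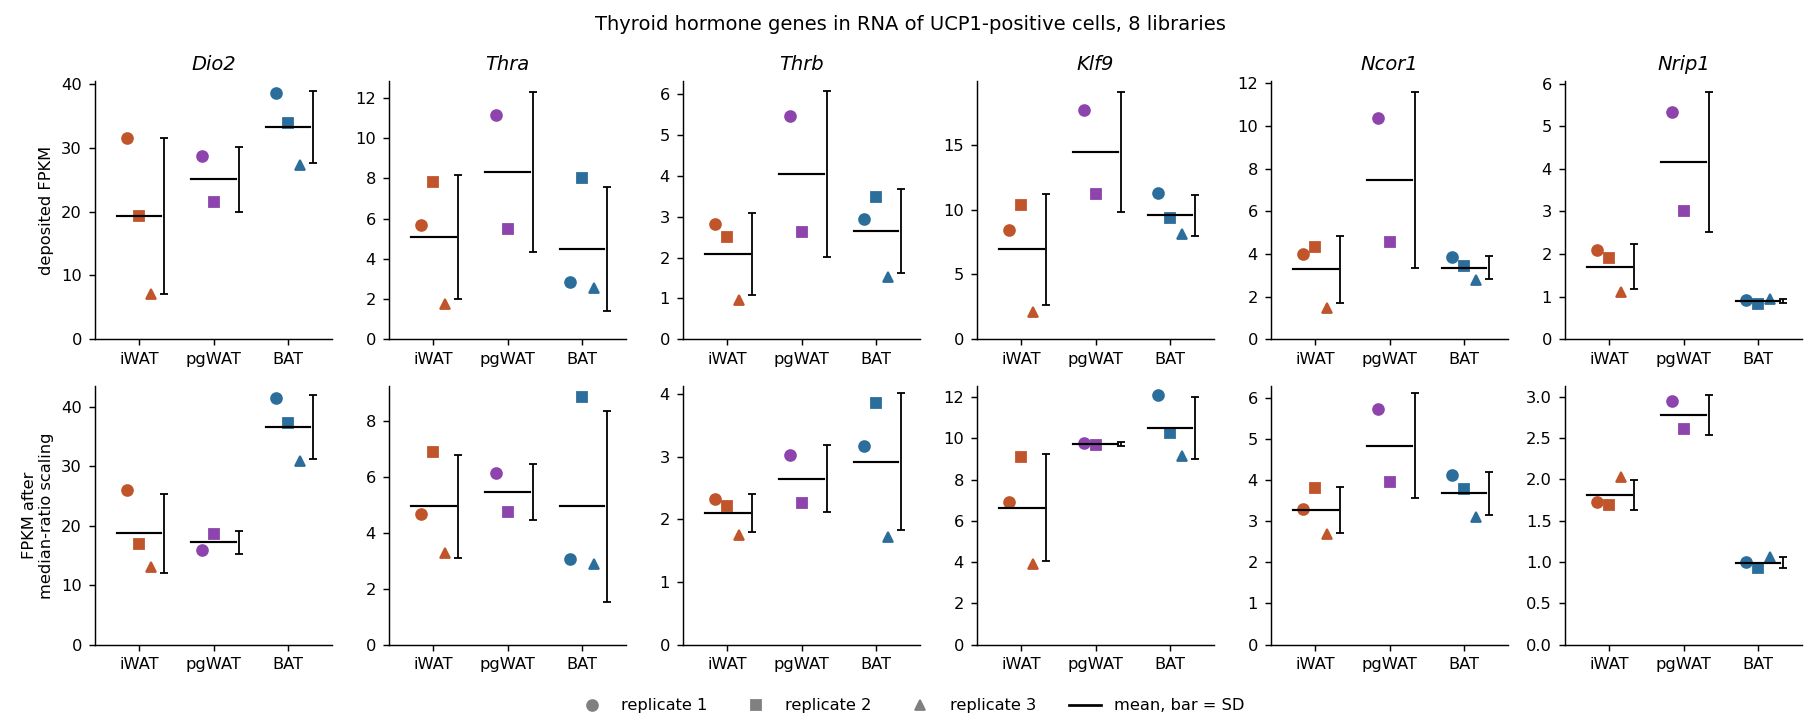
FPKM of the 6 genes in each library (points, shaped by replicate number) by depot, as deposited (upper row) and after median-ratio scaling (lower row), with the group mean (line) and SD (bar). After scaling, Dio2 lay at 13.1 to 26.0 in iWAT and 15.9 to 18.6 in pgWAT, below 30.8 to 41.5 in BAT. Its white depots overlapped. Nrip1 ran the opposite way, with no overlap between any depots. Thra, Thrb, Klf9 and Ncor1 each overlapped BAT in pgWAT. In iWAT, Klf9 lay below both other depots and Ncor1 below pgWAT.

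Dio2 was read by 246, 150 and 49 fragments in iWAT and 300 and 171 in pgWAT, against 277, 249 and 198 in BAT. Scaled to the fragments recovered in each library, these are 574, 371 and 247 in iWAT and 337 and 360 in pgWAT, against 996, 824 and 675 fragments in BAT out of each 1000000 recovered. The exact 95% Poisson interval of the highest white library (505 to 651, iWAT replicate 1) ended above the lower bound of BAT replicate 3 (584 to 776) and below those of the other BAT libraries. The recovered fragments per kilobase, in the same limma test, gave -1.12 for iWAT over BAT (adjusted p = 0.0489, where 1.69% of genes were called lower) and -1.22 for pgWAT over BAT (adjusted p = 0.0489, where 3.66% were called lower). These intervals cover counting error only.

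**Figure D3:**
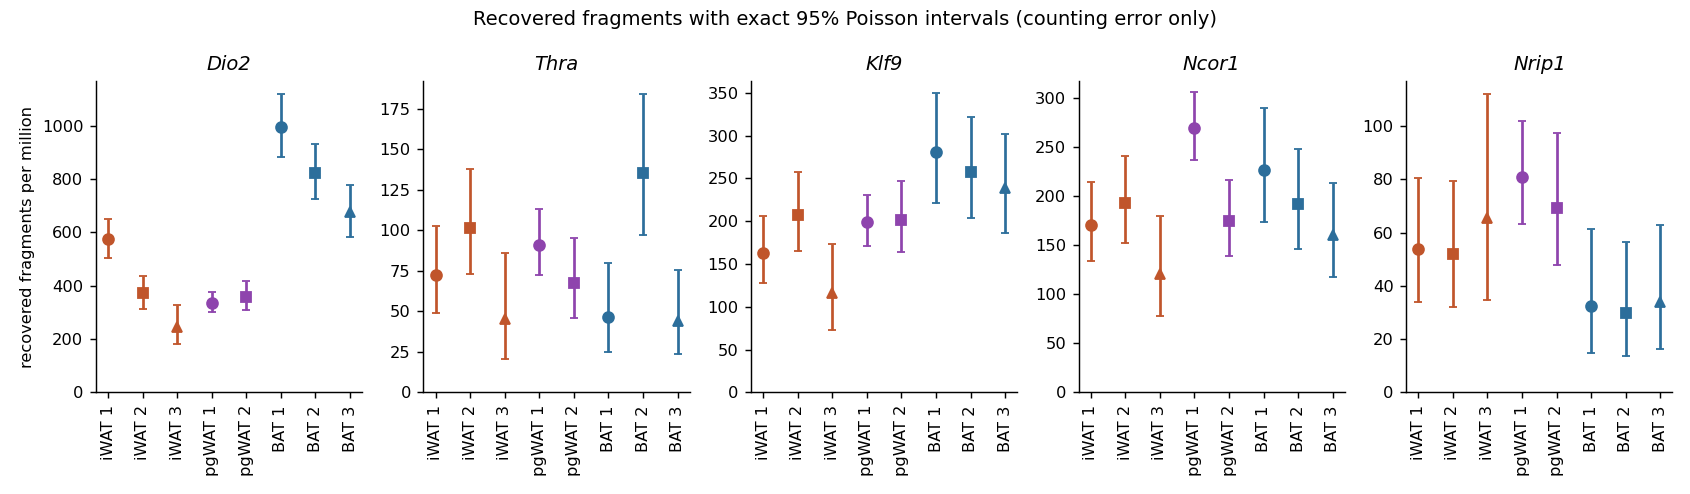
Fragments out of each 1000000 recovered, in each library, for the 5 genes with 1 listed transcript, with exact 95% Poisson intervals, which cover counting error only. BAT was highest for Dio2 (675 to 996) and lowest for Nrip1 (29.8 to 34.1), whose intervals are wide because 9 or 10 fragments carry each BAT value.

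Set against Ucp1 in the same library, which needs no scaling between libraries, Dio2 stood at 0.0223, 0.0148 and 0.0121 of the Ucp1 FPKM in iWAT and 0.0180 and 0.0167 in pgWAT, against 0.0273, 0.0215 and 0.0208 in BAT. The pgWAT libraries lay below all BAT libraries, and iWAT replicate 1 lay within the BAT range. Ucp1 is the gene that marks the cells, and its own levels were 1104 ± 447 FPKM in iWAT, 1438 ± 220 in pgWAT and 1432 ± 132 in BAT.

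The deiodinases Dio1, which also makes T3, and Dio3, which inactivates both hormones, were listed at 0 in all 8 libraries. Crym, whose product binds T3 in the cytosol, was listed above 0 in pgWAT replicate 1 alone, at 0.875 FPKM. None of these 3 genes reached the minimum for testing, an FPKM of 1 in 2 libraries, so Dio2 was the deiodinase that could be compared. Of 6 genes for transporters that carry thyroid hormone or form part of such carriers, 5 were tested and none was called in any comparison on either scale. The most abundant was Slc3a2, the heavy chain shared by amino acid exchangers, at 18.4 ± 8.90 FPKM in iWAT, 29.0 ± 9.61 in pgWAT and 11.4 ± 3.96 in BAT. Slc16a10, the aromatic amino acid transporter MCT10, had 2.76 ± 0.913 FPKM in iWAT, 6.45 ± 2.58 in pgWAT and 2.93 ± 0.608 in BAT. The median log2 fold change of the 5 after scaling was -0.09 in iWAT and 0.23 in pgWAT over BAT, beside 0.01 and 0.03 over all tested genes.

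Deiodinase 2 protein is short-lived because it is ubiquitinated, and 9 genes of that step were all tested. None was called as deposited. After scaling 1 of the 9 was lower in both white depots, beside 1.65% of genes in iWAT and 3.46% in pgWAT: Tceb2, which encodes elongin B, a subunit of cullin-based ubiquitin ligases that is not specific to deiodinase 2. Its FPKM was 77.7, 74.0 and 35.03 in iWAT and 78.0 and 83.5 in pgWAT, against 125, 105 and 97.3 in BAT. The scaled log2 fold change was -0.88 in iWAT (adjusted p = 0.0317) and -1.08 in pgWAT (adjusted p = 0.0182). The iWAT call was lost without any iWAT or BAT library (adjusted p up to 0.115), and the pgWAT call without pgWAT replicate 1 (-0.71, adjusted p = 0.174) or BAT replicate 1 (0.0667). The list's scaled median was -0.06 in iWAT and -0.25 in pgWAT over BAT. Its partner Tceb1 (elongin C) had 35.5 ± 7.07 FPKM in iWAT, 33.9 ± 3.92 in pgWAT and 32.4 ± 6.51 in BAT and was not called. Deiodinases contain selenocysteine. Of 8 genes for its insertion 7 were tested and none was called on either scale, with a scaled median of 0.29 in iWAT and 0.06 in pgWAT over BAT. The most abundant was Sephs2, which makes selenophosphate, at 26.0 ± 9.41 FPKM in iWAT, 38.0 ± 6.15 in pgWAT and 27.6 ± 4.65 in BAT. Trnau1ap, which binds the selenocysteine tRNA, had 4.53 ± 2.91 in iWAT, 4.69 ± 1.49 in pgWAT and 3.61 ± 1.02 in BAT.

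Thra, the gene of TRα, was not called between any depots. Its FPKM was 5.67, 7.82 and 1.77 in iWAT and 11.1 and 5.49 in pgWAT, against 2.84, 8.04 and 2.56 in BAT. All 3 depots overlapped, and the BAT libraries disagreed among themselves: BAT replicate 2 held 41 fragments of Thra (exact Poisson interval 29.4 to 55.6), against 13 in each of the other BAT libraries (6.92 to 22.2), at similar depth. The scaled means were 4.94 ± 1.83 in iWAT, 5.45 ± 0.990 in pgWAT and 4.94 ± 3.40 in BAT. The scaled log2 fold change in limma was 0.10 for iWAT over BAT (interval -0.70 to 0.89) and 0.25 for pgWAT over BAT (interval -0.64 to 1.14), which leaves room for differences in either direction. As deposited the values were 0.13 (adjusted p = 0.995) and 0.83 (adjusted p = 0.285). The iWAT value turned negative without iWAT replicate 1 or 2 or BAT replicate 1 or 3, and ran between -0.21 and 0.62. The gene lies at chr11:98603187-98626425 on the plus strand in mm9, and its listed transcript ended 2823 bases before that of Nr1d1 on the other strand, so the listed models shared no base.

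Thrb, the gene of TRβ, had 2.83, 2.51 and 0.952 FPKM in iWAT and 5.48 and 2.62 in pgWAT, against 2.94, 3.49 and 1.52 in BAT. All 3 depots overlapped here too. The scaled means were 2.10 ± 0.308 FPKM in iWAT, 2.65 ± 0.540 in pgWAT and 2.91 ± 1.09 in BAT. After scaling the log2 fold change over BAT was -0.30 in iWAT (interval -0.85 to 0.25) and -0.07 in pgWAT (interval -0.69 to 0.55). The pgWAT value was 0.45 as deposited, so its sign depended on the scale. Thrb spans chr14:18493474-18870602 on the plus strand in mm9, with 2 listed transcripts whose starts are 320684 bases apart, the same distance as between the RefSeq starts printed above. The transcript from the upstream start carried the FPKM in all 8 libraries, and the downstream one reached at most 0.00027 FPKM. Cufflinks divides reads between transcripts that share exons, so this split is an estimate. Thra exceeded Thrb in FPKM in 7 of 8 libraries, with a ratio of 2.01, 3.11 and 1.86 in iWAT and 2.03 and 2.10 in pgWAT, against 0.966, 2.30 and 1.68 in BAT.

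The retinoid X receptors, partners of TRα and TRβ on DNA, were all 3 tested and none was called in any comparison on either scale. Rxrb had 7.91 ± 4.14 FPKM in iWAT, 9.57 ± 1.22 in pgWAT and 9.50 ± 0.408 in BAT, and Rxrg had 6.82 ± 2.84 in iWAT, 9.64 ± 3.28 in pgWAT and 9.09 ± 2.76 in BAT. Rxra had 6.58 ± 2.89 in iWAT, 10.0 ± 2.77 in pgWAT and 4.66 ± 0.980 in BAT. The scaled log2 fold change over BAT in iWAT and pgWAT was 0.34 and 0.36 for Rxra. It was -0.41 and -0.59 for Rxrb, and -0.42 and -0.52 for Rxrg. Among 47 genes for nuclear receptors, 27 were tested. As deposited 1 of the 27 was called, Rora, higher in pgWAT than in BAT (log2 fold change 1.57, limma adjusted p = 0.0183), beside 4.91% of all tested genes. Rora was called in 8 of 18 alternatives. It lost the call after scaling (1.12, adjusted p = 0.0939), with a pseudocount of 0.1 (0.0904), no filter on low values (0.220), only the 2 depots compared (0.0510), the most abundant transcript (0.118), equal totals (0.0775) or recovered fragments (0.182), and without pgWAT replicate 1 (0.567) or BAT replicates 1 or 2 (0.170 and 0.0502). After scaling 2 were lower than in BAT, 1 in iWAT, beside 1.65% of all tested genes, and 1 in pgWAT, beside 3.46%. These were Nr1h3, the liver X receptor α, in iWAT (-0.78, adjusted p = 0.0447), a call that held without BAT replicate 3 and was lost without each of the other libraries (adjusted p up to 0.151), and Esrra, the oestrogen-related receptor α of oxidative genes, in pgWAT (-0.93, adjusted p = 0.0156). Esrra had 31.1, 30.7 and 15.3 FPKM in iWAT and 34.4 and 28.1 in pgWAT, against 38.1, 41.9 and 34.2 in BAT, and its call was lost without pgWAT replicate 1 (adjusted p = 0.177) or BAT replicate 2 (0.0553). Rora and Nr1h3 are named because they were the receptors called, and were chosen after their values were seen. Pparg, the master regulator of adipocyte formation, had 22.8 ± 9.75 FPKM in iWAT, 35.9 ± 12.7 in pgWAT and 28.4 ± 7.59 in BAT and was not called.

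Klf9, the T3- and glucocorticoid-responsive factor, had 8.39, 10.3 and 2.13 FPKM in iWAT and 17.7 and 11.2 in pgWAT, against 11.3, 9.32 and 8.11 in BAT. Klf9 lies at chr19:23215716-23241401 on the plus strand in mm9. As deposited the iWAT libraries lay below both pgWAT libraries and overlapped BAT. After scaling the values were 6.92, 9.09 and 3.90 in iWAT and 9.80 and 9.67 in pgWAT, against 12.1, 10.3 and 9.15 in BAT, so that iWAT lay below both other depots and pgWAT within the BAT range. No difference was called in limma. The scaled log2 fold change was -0.65 for iWAT over BAT (interval -1.21 to -0.08, adjusted p = 0.191), -0.09 for pgWAT over BAT (interval -0.72 to 0.53, adjusted p = 0.905) and -0.55 for iWAT over pgWAT (interval -1.18 to 0.07, adjusted p = 0.701). The value for pgWAT over BAT was 0.53 as deposited, so its sign depended on the scale. Out of each 1000000 recovered fragments, Klf9 stood at 163, 208 and 116 in iWAT and 199 and 202 in pgWAT, against 280, 258 and 239 in BAT, where every BAT library was above every white one. The log2 fold change on that scale was -0.70 (adjusted p = 0.102) in iWAT and -0.36 (adjusted p = 0.506) in pgWAT, again with no call. Fragments and FPKM disagree most for iWAT replicate 3, in which a given FPKM of Klf9 stood for 1.82 times the fragments of the library's median gene of the same length, against 1.21 to 1.46 times in the other libraries.

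Of 17 genes of the Krüppel-like family 9 reached the minimum and none was called on either scale. Klf9 had the highest mean of them, and the next, Klf3, had 2.74 ± 1.02 FPKM in iWAT, 6.78 ± 3.23 in pgWAT and 2.63 ± 0.638 in BAT.

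Of 15 genes known to respond to thyroid hormone in some tissue 14 were tested, and those called were for the most part genes of fatty acid synthesis. As deposited 4 were called higher in iWAT than in BAT, where 1.73% of all tested genes were, and 7 in pgWAT than in BAT, where 4.91% were. After scaling 5 were called higher in iWAT, beside 3.04% of genes, and 6 in pgWAT, beside 2.63%. None was called lower, and none between iWAT and pgWAT, on either scale. Thrsp, the lipogenic protein Spot 14 found as a thyroid hormone-responsive mRNA in liver, had 463, 608 and 299 FPKM in iWAT and 813 and 791 in pgWAT, against 134, 163 and 188 in BAT. No library of either white depot overlapped BAT, and the log2 fold changes were 1.45 (adjusted p = 0.00140) and 2.32 (1.28e-06). Me1, which makes NADPH for lipid synthesis, averaged 268 ± 65.7 in iWAT and 437 ± 45.1 in pgWAT, against 40.4 ± 0.805 in BAT. Fasn, the fatty acid synthase, averaged 496 ± 183 in iWAT and 1037 ± 236 in pgWAT, against 57.2 ± 23.4 in BAT. Acaca, the acetyl-CoA carboxylase that feeds it, averaged 141 ± 33.5 in iWAT and had 310 and 261 in pgWAT, against 25.9 ± 7.24 in BAT. These 4 were higher than BAT in both white depots on both scales, and held when any library was left out. Without the filter on low values the deposited iWAT calls of Thrsp, Fasn and Acaca were lost (adjusted p of 0.173, 0.0702 and 0.0518), as was that of Me1 with its most abundant transcript alone (0.185). The 3 others called as deposited, in pgWAT, were Hr, a nuclear corepressor, and the lipogenic transcription factors Mlxipl and Srebf1, each of which lost the call without pgWAT replicate 1 (adjusted p of 0.898, 0.249 and 0.401). Without the filter on low values all 3 lost it (0.164 for Hr, 0.0579 for Mlxipl and 0.0829 for Srebf1), and Srebf1 also in recovered fragments (0.0539). Hr, called in 6 of 18 alternatives, further lost it with a pseudocount of 0.1 (0.0958), the replicate block (0.0811), no variance trend (0.0584) or the most abundant transcript (0.125). Hr also lost its call after scaling (adjusted p = 0.0626), with equal totals (0.0530), without iWAT replicate 1 (0.0533) and without BAT replicates 1, 2 or 3 (0.159, 0.103 and 0.138), and Srebf1 without BAT replicate 1 (0.0978). After scaling Srebf1 was called in pgWAT too (1.22, adjusted p = 0.0335), a call lost without pgWAT replicates 1 or 2 (0.221 and 0.126) or BAT replicates 1 or 2 (0.0767 and 0.0547). Mlxipl was also called in pgWAT after scaling (1.40, limma adjusted p = 0.00356), a call that held whichever library was left out (adjusted p up to 0.0486). The scaled call of Mlxipl in iWAT (0.74, adjusted p = 0.0439) was lost without any single library, with adjusted p up to 0.143. The list's median log2 fold change after scaling was 0.60 in iWAT and 0.79 in pgWAT, beside 0.01 and 0.03 over all tested genes. These genes also answer to insulin and diet. Hr, Mlxipl and Srebf1 were named after their values were seen. In BAT Hr had 0.150, 0.330 and 0.193 FPKM, all below the minimum, so its white libraries alone let it be tested. Its filter and its call thus rest on the same values.

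**Figure D4:**
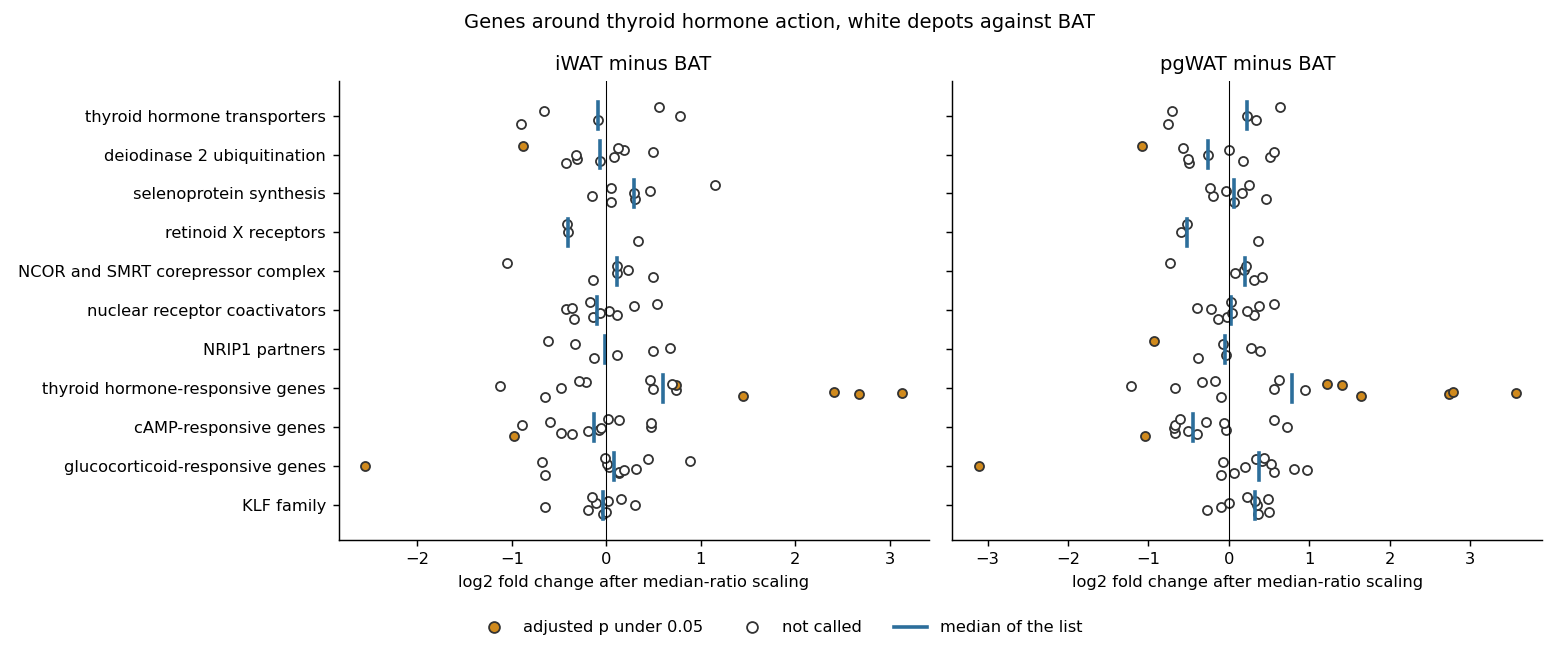
Log2 fold change after median-ratio scaling of each tested gene (points, filled where the adjusted p was under 0.05) in 11 lists around thyroid hormone action, for iWAT minus BAT (left) and pgWAT minus BAT (right), with each list's median (bar). The hormone-responsive list holds 5 filled points on the right side in iWAT and 6 in pgWAT, while the transporters, selenoprotein, retinoid X receptor, NCOR and SMRT, coactivator and KLF lists hold none.

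Because Dio2 is induced through cyclic AMP and Klf9 by glucocorticoids, the targets of both signals were read. Of 13 cyclic AMP-responsive genes 12 were tested and none was called as deposited. After scaling Dio2 itself was the 1 of the 12 called, lower in both white depots, beside 1.65% of all tested genes in iWAT and 3.46% in pgWAT. The list's scaled median was -0.13 in iWAT and -0.45 in pgWAT over BAT. Of 13 glucocorticoid-responsive genes 12 were tested. The list's median log2 fold change was 0.10 in iWAT and 0.88 in pgWAT over BAT as deposited, beside 0.03 and 0.52 over all tested genes, and 0.08 and 0.37 after scaling, beside 0.01 and 0.03. Mt2, a metallothionein that also answers to zinc, went against these medians. It was the 1 gene of the list called lower in both white depots, where 0.469% (iWAT) and 0.268% (pgWAT) of all tested genes were called lower, with 4.04, 17.6 and 3.65 FPKM in iWAT and 15.2 and 2.68 in pgWAT, against 28.7, 52.6 and 51.0 in BAT (log2 fold change -2.52, adjusted p = 8.18e-05 and -2.50, adjusted p = 0.000523). Its pgWAT value was -1.43 without pgWAT replicate 2 and not called (adjusted p = 0.121). Neither call held without the filter on low values (adjusted p of 0.316 in iWAT and 0.213 in pgWAT) or with the most abundant transcript (0.0509 and 0.0650). After scaling it was also called lower in iWAT (-2.55) and pgWAT (-3.10), a call lost in iWAT without iWAT replicates 1 or 3 (0.0554 and 0.0623) or BAT replicates 2 or 3 (0.0611 and 0.0587), and in pgWAT without pgWAT replicate 2 (0.0767). Zbtb16, a zinc finger factor, was called higher in pgWAT (1.41, adjusted p = 0.0470) on 7.24 FPKM in pgWAT replicate 1 and 0.799 in replicate 2, against 0.766, 0.365 and 0.254 in BAT. All its BAT values were below the minimum for testing, so the filter and the call of Zbtb16 rest on the same white values. It was called in 3 of the 16 alternatives that could test it. Without iWAT replicate 1 or pgWAT replicate 1 it fell below the minimum for testing, without pgWAT replicate 2 the value was 2.51, and the call was lost with a pseudocount of 0.1 (adjusted p = 0.217), the replicate block (0.0606) or the most abundant transcript (0.216), after scaling (adjusted p = 0.233) and without iWAT replicate 3 (0.0704) or BAT replicates 1, 2 or 3 (0.0539, 0.110 and 0.141).

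Ncor1, the corepressor of hormone-free receptors, had 4.01, 4.33 and 1.46 FPKM in iWAT and 10.4 and 4.56 in pgWAT, against 3.84, 3.44 and 2.76 in BAT. Ncor1 lies at chr11:62130192-62270834 on the minus strand in mm9. As deposited pgWAT lay above both other depots, by the narrow margin of its replicate 2. After scaling the means were 3.27 ± 0.564 in iWAT, 4.85 ± 1.27 in pgWAT and 3.68 ± 0.522 in BAT, and pgWAT replicate 2 (3.95) fell within the BAT range. The limma log2 fold change after scaling was -0.14 for iWAT over BAT (interval -0.60 to 0.33) and 0.31 for pgWAT over BAT (interval -0.21 to 0.83), against -0.10 and 0.88 (adjusted p = 0.240) as deposited. The 5 other genes of the NCOR and SMRT complexes were all tested and none was called on either scale. Hdac3, their histone deacetylase, had 8.97 ± 5.78 FPKM in iWAT, 11.3 ± 1.55 in pgWAT and 6.69 ± 1.10 in BAT, and Tbl1x, a subunit that exchanges corepressor for coactivator, had 5.89 ± 3.23 in iWAT, 8.43 ± 3.59 in pgWAT and 4.49 ± 1.63 in BAT. The scaled median of the complexes was 0.11 in iWAT and 0.20 in pgWAT over BAT. Of 11 coactivator genes 10 were tested and none was called. The most abundant of them were Ncoa4, at 16.0 ± 5.03 FPKM in iWAT, 27.1 ± 15.0 in pgWAT and 10.5 ± 2.66 in BAT, and Ppargc1a, the coactivator PGC-1α of mitochondrial biogenesis, at 6.18 ± 2.58 in iWAT, 10.3 ± 7.04 in pgWAT and 8.39 ± 4.28 in BAT.

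Nrip1, the corepressor that restrains Ucp1 and oxidative genes, was called higher in pgWAT than in BAT on both scales. Its FPKM was 2.09, 1.92 and 1.10 in iWAT and 5.33 and 3.01 in pgWAT, against 0.923, 0.835 and 0.936 in BAT. Every BAT value was below the minimum of 1 FPKM, so Nrip1 was tested only because its white libraries were higher. The filter and the call thus rest on the same values. The 3 depots did not overlap, in the order pgWAT, iWAT, BAT, and BAT varied least. The means were 1.70 ± 0.528 (iWAT), 4.17 ± 1.64 (pgWAT) and 0.898 ± 0.0551 FPKM (BAT), a ratio to BAT of 1.90 for iWAT and 4.64 for pgWAT. After scaling the values were 1.72, 1.69 and 2.02 in iWAT and 2.95 and 2.61 in pgWAT, against 0.994, 0.922 and 1.06 in BAT, still without overlap, and the ratios to BAT were 1.83 and 2.80.

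For pgWAT over BAT the log2 fold change of Nrip1 was 1.41 (interval 0.57 to 2.25, limma adjusted p = 0.0321) as deposited and 0.92 (interval 0.44 to 1.41, adjusted p = 0.0335) after scaling. For iWAT over BAT it was 0.49 (interval -0.26 to 1.24, adjusted p = 0.908) and 0.50 (interval 0.06 to 0.93, adjusted p = 0.192), and for iWAT over pgWAT -0.92 (adjusted p = 0.376) and -0.43 (adjusted p = 0.701), with no call. The deposited pgWAT call was lost without pgWAT replicate 1 (log2 fold change 1.08, adjusted p = 0.710) and without BAT replicates 1, 2 or 3 (adjusted p of 0.117, 0.122 and 0.109). The scaled call was lost without either pgWAT library (adjusted p of 0.258 and 0.102) and without BAT replicates 1, 2 or 3 (0.0840, 0.0856 and 0.0686). With a pseudocount of 0.1 the log2 fold change was 2.04 (adjusted p = 0.0828), and with the replicate number as a block it was 1.33 (adjusted p = 0.0558). The deposited call was also lost without the filter on low values (adjusted p = 0.143) and with the most abundant transcript (0.0998). Nrip1 has 1 listed transcript, so these settings left its own FPKM unchanged and altered the other genes in the test. The added 1 understates changes of a gene this low. Few fragments carry it: 23, 21 and 13 in iWAT and 72 and 33 in pgWAT, against 9, 9 and 10 in BAT. Scaled to recovered fragments these are 53.7, 52.0 and 65.5 in iWAT and 80.8 and 69.4 in pgWAT, against 32.4, 29.8 and 34.1 fragments in BAT out of each 1000000 recovered (Poisson interval of BAT replicate 1: 14.8 to 61.4), with a log2 fold change of 1.12 for pgWAT over BAT (adjusted p = 0.0711). Nrip1 lies at chr16:76291107-76373294 on the minus strand in mm9. Beside it, the sum of 6 fibroblast genes was 13.9 to 22.2 FPKM in iWAT, 111 and 20.5 in pgWAT replicates 1 and 2, and 3.39 to 10.4 in BAT. That of 6 endothelial genes was 1.27 to 4.19 in iWAT, 5.64 to 10.8 in pgWAT and 2.50 to 3.64 in BAT. The part of these cells in the Nrip1 difference was not tested.

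Ratios within a library carry no scaling. Nrip1 stood at 0.0663, 0.0994 and 0.154 of Dio2 in iWAT and 0.186 and 0.140 in pgWAT, against 0.0240, 0.0247 and 0.0343 in BAT. Every white library lay above every BAT library. The ratio of Nrip1 to Ncor1, the other corepressor, was 0.521, 0.443 and 0.753 in iWAT and 0.514 and 0.660 in pgWAT, against 0.240, 0.243 and 0.339 in BAT, again without overlap. Nrip1 to Klf9 did the same, with 0.186 to 0.519 in iWAT and 0.269 to 0.301 in pgWAT, against 0.0820 to 0.115 in BAT. These ratios all hold Nrip1, whose own levels did not overlap between depots, so they are not separate results. Of other ratios formed, Klf9 to Thra overlapped BAT in both white depots. Klf9 to Dio2 and Dio2 to Thra overlapped BAT in iWAT and not in pgWAT. All the ratios were read after the levels were known and are given without a test.

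**Figure D5:**
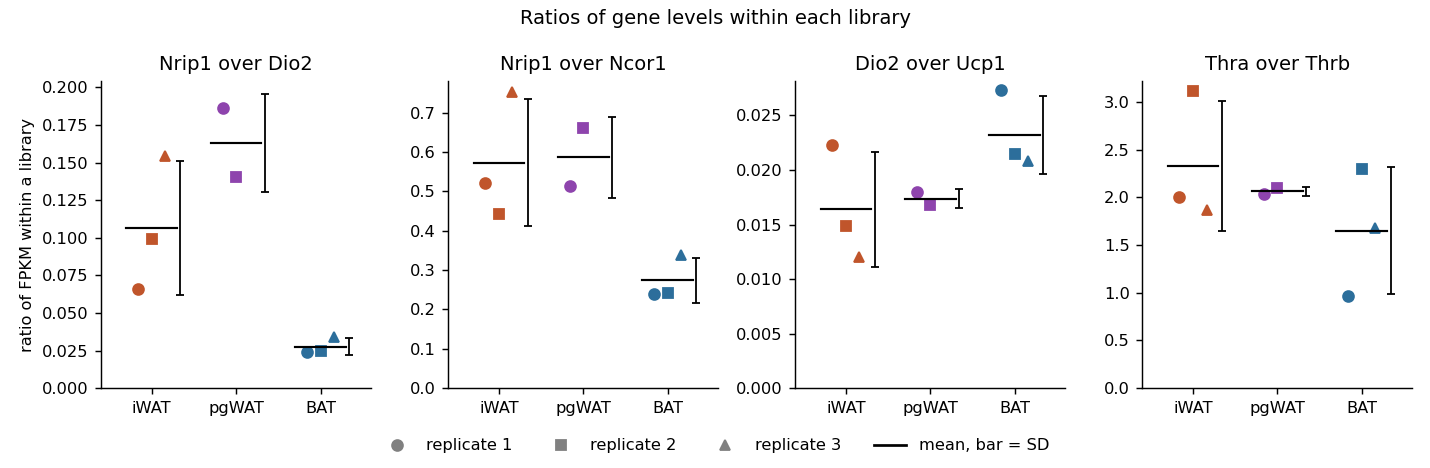
Ratio of the FPKM of 2 genes within each library (points, shaped by replicate number) by depot, with the group mean (line) and SD (bar). Nrip1 over Dio2 and Nrip1 over Ncor1 were 0.0663 to 0.186 and 0.443 to 0.753 in the white depots, above 0.0240 to 0.0343 and 0.240 to 0.339 in BAT, and Thra over Thrb overlapped.

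Of 8 partners of NRIP1 through which it represses or on which it acts, 6 were tested and none was called as deposited. Esrra, described above, was the 1 called after scaling, lower in pgWAT, beside 3.46% of all tested genes. Ctbp1, a corepressor that binds NRIP1, had 9.76 ± 3.40 FPKM in iWAT, 12.3 ± 2.94 in pgWAT and 10.4 ± 2.22 in BAT. Of 4 genes that NRIP1 is known to repress in adipocytes, all tested, none was called as deposited. After scaling 1 was lower in both white depots, beside 1.65% of all tested genes in iWAT and 3.46% in pgWAT. This was Fabp3, a fatty acid carrier of oxidative tissue, with 345, 387 and 178 FPKM in iWAT and 490 and 366 in pgWAT, against 537, 470 and 709 in BAT, and a scaled log2 fold change of -0.97 (adjusted p = 0.0197) and -1.08 (adjusted p = 0.0167). The iWAT call was lost without iWAT replicates 1 or 3 (adjusted p of 0.0736 and 0.0532) or BAT replicates 1 or 3 (0.0566 and 0.0648), and the pgWAT call without pgWAT replicate 1 (0.131). Ucp1, another of the 4, had a scaled log2 fold change of -0.47 in iWAT (adjusted p = 0.146) and -0.67 in pgWAT (adjusted p = 0.0629). As deposited its values were -0.47 in iWAT and 0.00068 in pgWAT, so the pgWAT value depended on the scale. The median of the 4 was -0.41 in iWAT and 0.14 in pgWAT as deposited, and -0.42 and -0.53 after scaling.

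The genes most like each member over the 8 libraries were found by the root mean square (RMS) difference of log2(FPKM + 1). These values were scaled and centred on each gene's mean, and 3102 genes with a mean FPKM of at least 5 were candidates. Dio2 was nearest to Heg1 (RMS difference 0.14, where Dio2's own values spread by 0.55), followed by Hcn2 and Impdh1. Heg1 had 15.3, 9.30 and 4.33 FPKM in iWAT and 17.4 and 12.1 in pgWAT, against 18.8, 20.1 and 15.7 in BAT. Klf9 was nearest to Eif2ak1 (0.07, beside its own spread of 0.41), then Ywhaq and Wnk1. Nrip1 was nearest to Ralgapa2 (0.12, beside 0.37), then Sparc and Itih5. Sparc, a matrix glycoprotein gene, averaged 65.6 FPKM in iWAT and 115 in pgWAT, against 38.9 in BAT. Thra had no close match, with Btg1, Chkb and Necap2 at 0.25 beside its own 0.46. Thrb was nearest to Trappc1 (0.12, beside 0.28), Dyrk1b and Celf2, and Ncor1 to Pcyt1a (0.10, beside 0.24), Tef and Pde3b. The likeness includes what these libraries share in depth and composition. The added 1 shrinks the changes of low genes such as Nrip1 more than those of the candidates, so their matches depend partly on it.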

How the data were processed

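RNA pulled down with GFP-tagged ribosomes was sequenced in 8 libraries, grouped by the tissue labels. Per the submitters' processing notes, reads were aligned to mm9 with TopHat and quantified with Cufflinks, with no versions given. The deposited files list the authors' FPKM, with confidence bounds, for 28702 transcripts of 22552 gene symbols. FPKM was summed over each gene's transcripts. Where a gene has 1 transcript, whole fragments follow from FPKM and its upper bound, and 86.3 to 93.3% of these genes per library came out whole within 0.05. Thrb, with 2 transcripts, has no recovered number.

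A gene was tested if 2 or more libraries reached an FPKM of 1 and its longest transcript reached 300 nt (8958 genes). The libraries could be of any depot, so Nrip1, Hr and Zbtb16 passed through white libraries alone. The test used limma 3.58.1 in R 4.3.3, a variance trend and log2(FPKM + 1), all 8 libraries in 1 model of 3 depots, two-sided. The added 1 shrinks the fold changes of weakly expressed genes. The procedure was also run on simulated data with independent noise around each gene's mean. Those data held no shift of whole libraries, so that run does not bear on the choice of scale. Python 3.11.15, pandas 2.3.3, numpy 2.4.6, scipy 1.17.1 and matplotlib 3.10.9 did the rest. The replicate number was used as a block only in an alternative. For a gene with 1 listed transcript, taking the most abundant transcript left its FPKM unchanged and moved its adjusted p through other genes.

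The members and gene lists were chosen with earlier results of these data known, so lists are described by counts and medians, with no test. Named genes were the 6 members, in each list the up to 4 called genes (or, with fewer than 2 called, the 2 genes) with the highest mean FPKM, and the 3 genes most like each member. Other genes that changed a count, Rxra and the cell type markers singled out were named after their values were seen.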

Additional observations from a re-analysis of the deposited data

How the results depend on the processing

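The number of members called for iWAT over BAT was 0 as deposited and 1 (Dio2) after median-ratio scaling or in recovered fragments, and for pgWAT over BAT it was 1 (Nrip1) as deposited, 2 after median-ratio scaling, and 0 with a pseudocount of 0.1, with no filter on low values, with a minimum FPKM of 5 (which leaves Nrip1 out), with the replicate block and with the most abundant transcript. Leaving out each library, as deposited, gave 0 to 1 for pgWAT over BAT, and 0 throughout for the other 2 comparisons. After scaling, Dio2 kept its call for iWAT over BAT without iWAT replicate 1 (limma adjusted p = 0.0176). For pgWAT over BAT it kept the call without iWAT replicates 1 or 3 (0.0247 and 0.0265). For iWAT over pgWAT every alternative gave 0. Directions that turned, none of them a called value, were as follows on the log2 scale. After median-ratio scaling, Thrb and Klf9 in pgWAT over BAT were -0.068 and -0.093, and Dio2 in iWAT over pgWAT was 0.065; in recovered fragments Klf9 was -0.36 and Dio2 0.11. Leaving out a library, as deposited, moved iWAT over BAT between -0.21 and 0.62 for Thra, -0.50 and 0.047 for Thrb, and -0.30 and 0.26 for Ncor1. Leaving out a library after scaling moved Thra between -0.14 and 0.53 in iWAT over BAT and between -0.38 and 0.060 in iWAT over pgWAT, Thrb between -0.31 and 0.11 and Klf9 between -0.18 and 0.0028 in pgWAT over BAT, and Dio2 between -0.19 and 0.28 in iWAT over pgWAT. The cause of these changes was not tested. The equal totals, the recovered fragments and the left-out libraries after scaling were added after seeing the data.

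Libraries with the same replicate number correlated in their deviations from the group means by 0.126, 0.0804 and 0.1003 between iWAT and BAT, by -0.0136 and -0.0184 between pgWAT and BAT, and by -0.0272 and -0.0871 between iWAT and pgWAT, so the numbers were not taken to pair them. Between iWAT and BAT each library did correlate best with its own number, which is a hint from the data and not from the design. The replicate block called 280 genes for iWAT over BAT, 418 for pgWAT over BAT and 88 for iWAT over pgWAT, against 197, 464 and 63 without it, and gave Nrip1 a log2 fold change of 1.33 (limma adjusted p = 0.0558) in pgWAT over BAT. Depth limits the low genes most: 28 fragments in all carry Nrip1 in BAT. The calls over all genes were 155 higher and 42 lower for iWAT over BAT and 440 and 24 for pgWAT over BAT as deposited, and 272 and 148, and 236 and 310, after median-ratio scaling. Without the filter on low values they numbered 9 and 116.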
